A study of Homo sapiens with 12 samples.

Results

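The genes for collagen and laminin chains were examined in MDA-MB-231, a human triple negative breast cancer cell line, grown in Matrigel with and without Paclitaxel. Members were all gene identifiers whose symbol is COL, a number, A and a number, or LAMA, LAMB or LAMC and a number, with nothing after. There were 56 members, 44 collagen and 12 laminin chains, among 63568 identifiers. RNA was counted in 12 samples, 2 for each of 6 conditions. C1 was untreated culture on day 2 and C2 was untreated culture on day 4. The other conditions received Paclitaxel, a drug that stabilises microtubules, at 0.0005, 0.005, 0.05 or 0.5 µM on day 2 and were collected on day 4. The day of dosing is that of the labels, whereas the study's methods give a later day for the imaging cultures whose procedure the RNA cultures repeated. All samples came from the same GFP-labelled line, whose genotype is given as WT, in droplets of Matrigel on glass. The study's methods call the samples of a condition biological replicates, and state that cells were freed from the gel with collagenase and dispase before lysis.

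Collagens are trimers of chains that wind into a triple helix. Fibrillar collagens build rope-like fibrils, fibril-associated collagens decorate them, and collagen IV forms the sheet-like network of the basement membrane. Laminins are cross-shaped trimers of an alpha, a beta and a gamma chain, which polymerise on the cell surface and bind integrins and dystroglycan. Matrigel is itself a basement membrane extract from a mouse tumour, rich in laminin and collagen IV protein, so the RNA measured here says nothing about the amount of these proteins around the cells. In breast tumours most fibrillar collagen is made by fibroblasts, while carcinoma cells make laminins.

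The samples held between 38380629 and 79169121 counts, and 0.134% to 0.258% of the counts of a sample fell on members. Levels are given as CPM, the usual count per unit of library size, here after TMM scaling, and as RPKM, which is CPM per kilobase of exons, where levels of different genes are compared. All 6 markers of the basal-mesenchymal type reached 1 CPM, with a summed level of 2985 to 4720 CPM in untreated and 2467 to 3452 CPM in treated samples. At single doses 0 of the 6 were called by edgeR (0 to 3 had an unadjusted p under 0.05), and in treated against untreated samples 3 were called, all lower. In that comparison 25.1% of all tested genes with a mean of 1 CPM or more were called, 17.5% lower. Of 8 breast receptor and luminal markers 6 reached 1 CPM. Their list had a summed level of 468 to 630 CPM in untreated and 562 to 728 CPM in treated samples, most of it from the keratins KRT8 (417 CPM) and KRT18 (146 CPM) of simple epithelia. Of the receptors that define the triple negative type, the oestrogen receptor gene ESR1 had a mean of 0.276 CPM, the progesterone receptor gene PGR 0.0297 CPM and ERBB2 32.8 CPM. The C1 samples stood apart from the rest. Their log2 levels correlated with each other at 0.970 across genes, against 0.992 to 0.998 in the other pairs of replicates, and their slopes on GC content were the most extreme, at 0.17 and -0.20 log2 units per 10 percentage points. Of the 32 members with a mean of 1 CPM or more, 22 were lowest among the untreated samples in C1 replicate 2 and 17 were highest in C1 replicate 1.

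A mean of 1 CPM over the 12 samples was reached by 32 of the 56 members, 22 collagen and 10 laminin chains. COL15A1 lay just inside with 1.12 CPM and COL9A3 just outside with 0.848 CPM. In all 12 samples 29 members reached 1 CPM, and 35 did so in at least 1 sample. A test across all genes was possible for 48 members, and the 8 that were filtered out (COL19A1, COL6A6, LAMC3, COL6A5, COL5A3, COL22A1, COL1A2 and COL9A1) had means between 0.0137 and 0.0681 CPM, from 11 to 56 counts over all samples. The counts of the set fell mostly on few genes, and the 6 with the most, LAMB3 and COL13A1 among them, held 77.2% of the summed CPM of all members (not adjusted for length).

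**Figure D1:**
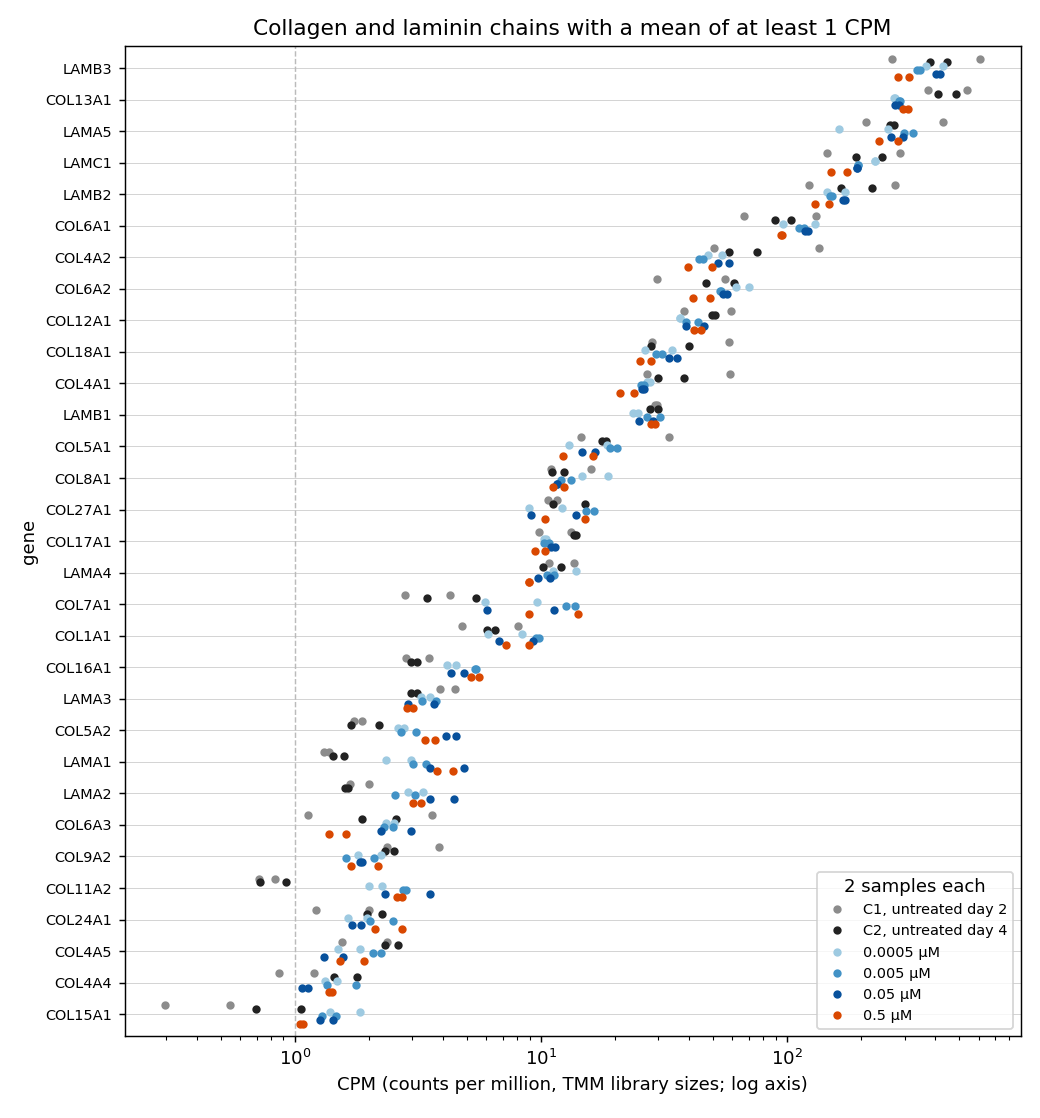
CPM (log axis) of 31 of the 32 chains with a mean of at least 1 CPM, 1 point per sample and 2 samples for each condition, ordered by mean. Levels ran from LAMB3 with a mean of 383 CPM to COL15A1 with 1.12 CPM, and the C1 replicates lie far apart for many chains. COL7A1 runs from 2.81 to 14.2 CPM.

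Per length, LAMB3 stood first, with 82.5 ± 19.4 RPKM (SD, n = 12 samples), above every other chain by more than their SDs. It encodes the β3 chain of the epithelial laminin that anchors hemidesmosomes. COL13A1, LAMB2, LAMC1, LAMA5 and COL6A1 had overlapping spreads: COL13A1 at 29.6 ± 7.89, LAMB2 at 24.5 ± 6.08, LAMC1 at 23.9 ± 4.70, LAMA5 at 19.2 ± 4.54 and COL6A1 at 19.2 ± 3.39 RPKM. COL6A2 followed with 9.92 ± 1.95 RPKM, COL18A1, the collagen that yields endostatin, with 3.92 ± 1.05 RPKM, COL4A2 with 3.08 ± 1.33 RPKM, COL12A1 with 2.32 ± 0.363 RPKM and COL4A1 with 2.03 ± 0.683 RPKM, and the remaining collagen chains had means under 2 RPKM. The exons of COL18A1 overlap those of SLC19A1 on the opposite strand over 18.5% of their length, and the strand used in counting is not given in the sources used here, so its level is uncertain.

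Chains that share a trimer differed widely in level. LAMA3, the α3 partner of LAMB3, had 0.234 ± 0.0335 RPKM, and the ratio of LAMB3 to LAMA3 in RPKM ran from 215 to 449 over the 12 samples. RPKM divides by all annotated exons of a gene merged, 14488 bases for LAMA3 and 4647 for LAMB3. Ratios and ranks per length thus depend on which transcripts are used, which was not examined. Without division by length the means were 3.40 CPM for LAMA3 and 383 CPM for LAMB3. In collagen VI, the beaded filament collagen, COL6A1 and COL6A2 stayed within a ratio of 1.50 to 2.27, while COL6A3, the chain that completes the usual trimer, was lower than COL6A1 by a median factor of 191. COL1A1 had a mean of 0.846 RPKM and its partner COL1A2 0.00291 RPKM, with 0 counts in some samples. COL4A1 and COL4A2, which form the common collagen IV trimer, stayed at a ratio of 0.572 to 0.783. Levels of RNA from whole samples do not separate fewer expressing cells from less RNA per cell.

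**Figure D2:**
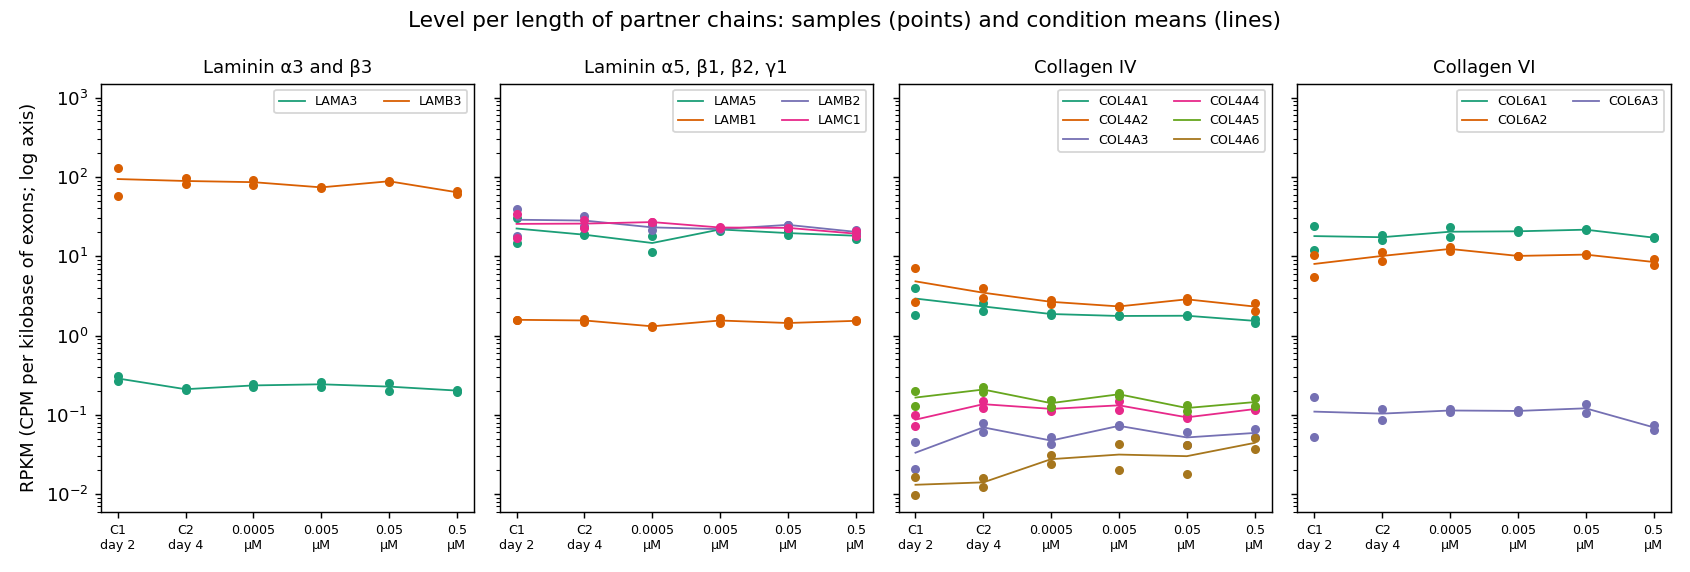
RPKM (log axis) of chains that share trimers or a family, in 4 panels by condition, with points for samples and lines for condition means. LAMB3 lies far above LAMA3, COL4A1 and COL4A2 above the other collagen IV chains, and COL6A1 and COL6A2 above COL6A3.

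The dose comparisons asked which chains differed from untreated culture of the same day. All 4 share the C2 samples, so they are not independent of each other. Chains are described as called where edgeR's quasi-likelihood test gave an adjusted p under 0.05, and the share of all 25249 tested genes called is given as background. At 0.0005 µM, 4 members were called, all higher, against a background of 2.34% (1.87% higher and 0.479% lower). At 0.005 µM, 6 were called, all higher (background 3.28%, 2.5% higher and 0.776% lower). At 0.05 µM, 12 were called, 10 higher and 2 lower (background 8.32%, 5.09% higher and 3.23% lower). At 0.5 µM, 11 were called, 10 higher and 1 lower (background 6.32%, 4.36% higher and 1.96% lower). Of the 48 tested members, 21 were above C2 at every dose and 12 below. The median log2 fold change of the tested members was 0.19, 0.23, 0.16 and 0.03 in order of rising dose, against -0.01, 0.04, -0.01 and 0.04 over all genes tested. It differed by level, at 0.01, 0.10, -0.01 and -0.13 for the 32 members of 1 CPM or more (-0.04, -0.08, -0.09 and -0.07 over all genes of that level) and at 0.88, 1.25, 1.38 and 1.40 for the 16 tested members under 1 CPM (0.11, 0.52, 0.34 and 0.46 over all genes). Weak genes could pass the filter through the doses where they were high, so the last medians and the calls on such genes are a description only. Leaving out C2 replicate 1 took the members called by edgeR to 0, 1, 5 and 1 (13 had an unadjusted p under 0.05 at 0.0005 µM), while 0.536%, 0.316%, 1.19% and 0.480% of all genes were called in that fit. Leaving out C1 replicate 2 raised them to 12, 16, 16 and 21, against 9.52%, 12.1%, 18.1% and 18.8% of all genes, and leaving out C1 replicate 1 to 11, 15, 16 and 21, against 9.23%, 12.4%, 18.0% and 18.5%.

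When the 8 treated samples were set against the 4 untreated samples of both days, 23 members were called, 18 higher and 5 lower, against a background of 24.4% (13.1% higher and 11.3% lower). The calls were uneven in level. Among the 32 members of 1 CPM or more, 12 were called, 8 higher and 4 lower, against a background of 25.1% at that level (7.59% higher and 17.5% lower). Members under 1 CPM gave 11 calls, 10 higher and 1 lower, where 23.2% of tested genes under 1 CPM were called, 22.2% higher and 1.01% lower. Some weak chains, such as COL2A1, COL23A1 and LAMB4, had 0 to 4 counts over the untreated samples and passed the filter through treated samples, which favours calls in the higher direction, so this count is a description. The genes under 1 CPM as a whole had a median log2 fold change of 0.43, and their share of the counts was 0.202% to 0.289% in untreated samples and 0.247% to 0.410% in treated samples. The part of this general difference in the calls on weakly expressed chains was not tested. In 18 of the 56 members every treated sample lay above every untreated sample (7.37% of tested genes did), and in 2, COL13A1 and COL9A2, every treated sample lay below (5.77% of tested genes). Of the 18, 7 were among the 32 members of 1 CPM or more, where 4.29% of tested genes lay above and 8.95% below. The other 11 were under 1 CPM, where 12.5% of tested genes lay above, and include COL5A3 and COL6A6, which were too low to test.

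**Figure D3:**
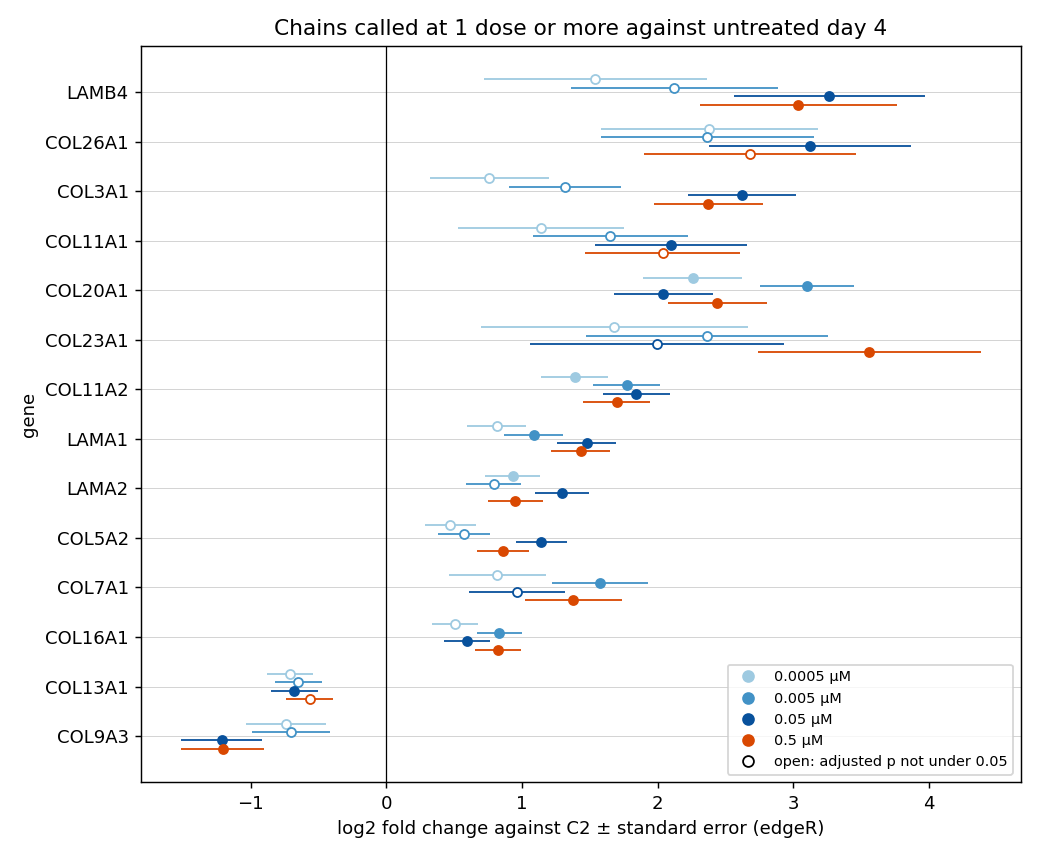
Log2 fold change against C2 with its standard error from edgeR, for 14 of the 15 chains called at 1 dose or more, in 4 colours by dose. Filled points have an adjusted p under 0.05. COL11A2 and COL20A1 are filled at all 4 doses, and COL13A1 and COL9A3 lie below 0.

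In untreated culture, day 4 was compared with day 2 to see change with time alone. By edgeR 1 member was called, higher on day 4, against a background of 0.325% (0.321% higher and 0.00396% lower). The median log2 fold change of the tested members was 0.07, against -0.02 over all genes tested. None of the collagen chains was called (4 of 37 tested had an unadjusted p under 0.05). Without C1 replicate 1 the count was 7, all higher, against 10% of all genes called in that fit, and without C1 replicate 2 it was 6, 2 higher and 4 lower, against 7.03%. Without either C2 sample it was 0 (5 and 4 members then had an unadjusted p under 0.05, edgeR).

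LAMB3, the most abundant member, and LAMA3, its partner, were called in no comparison. LAMB3 was 607 and 267 CPM in C1, 446 and 380 CPM in C2, 431 and 367 CPM at 0.0005 µM, and 312 and 283 CPM at 0.5 µM, so that the C1 replicates alone spanned more than all other samples. Its log2 differences from C2 ran from -0.47 to -0.01 and none was called. LAMA3 ranged from 2.85 to 4.47 CPM over all samples without a call.

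**Figure D4:**
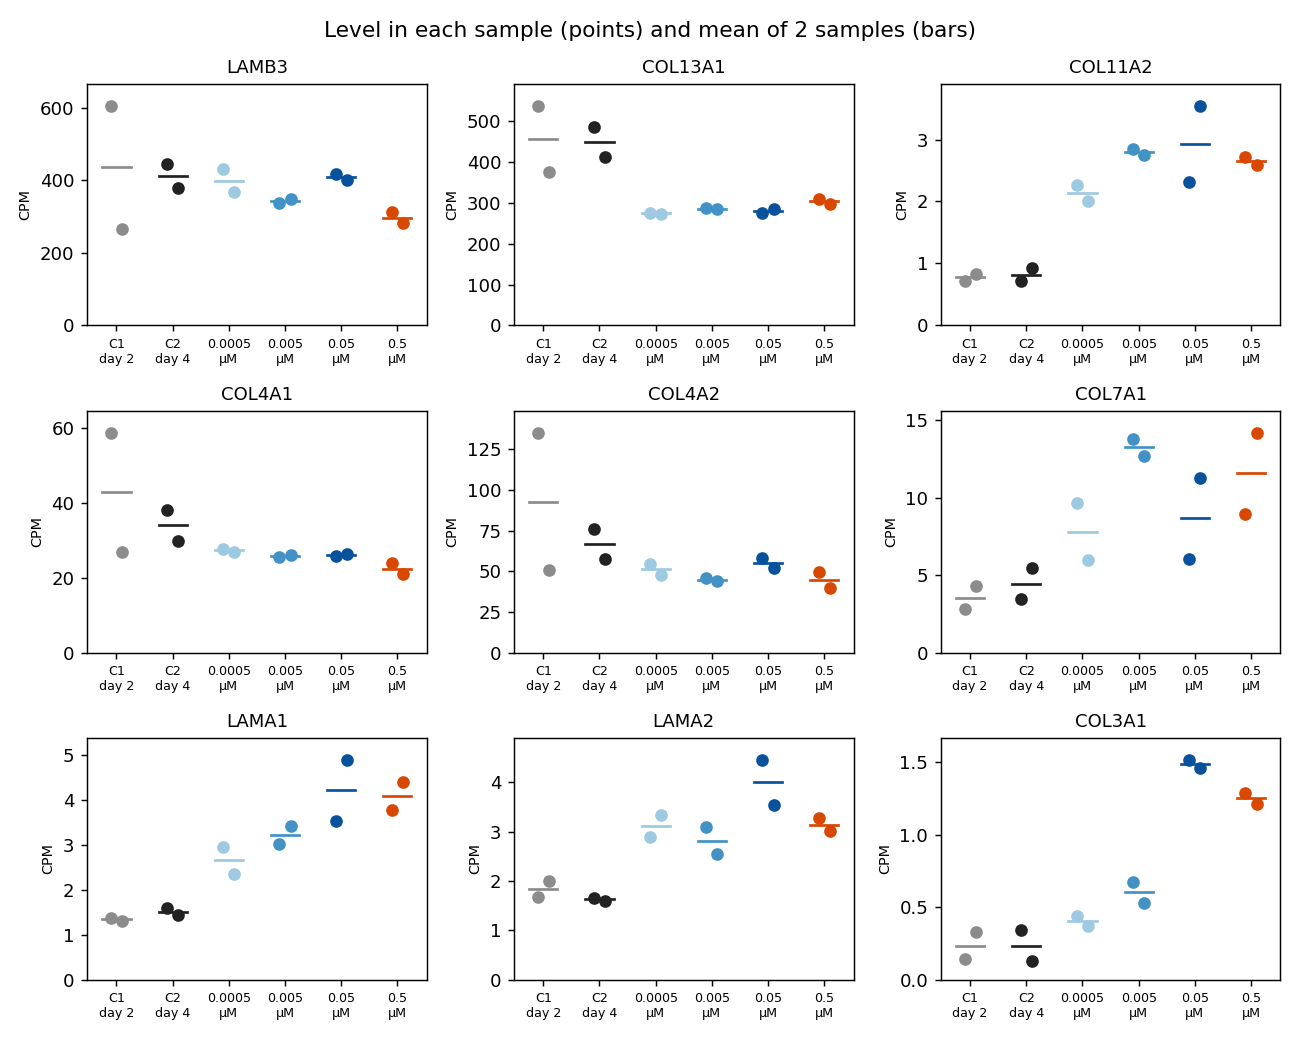
CPM of 9 chains in each sample (points) with the mean of the 2 samples of a condition (bars), each axis starting at 0. COL13A1 is lower in all treated samples (273 to 310 CPM) than in untreated ones (375 to 537 CPM), and COL11A2, LAMA1, LAMA2, COL7A1 and COL3A1 are higher in all treated samples.

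Among the other laminin alpha chains, LAMA1 and LAMA2 rose. LAMA1, the α1 chain of the embryonic laminin that also abounds in Matrigel, was between 1.31 and 1.59 CPM in the untreated samples, and had 2.96 and 2.35 CPM at 0.0005 µM, 3.02 and 3.42 CPM at 0.005 µM, 3.54 and 4.89 CPM at 0.05 µM and 3.78 and 4.39 CPM at 0.5 µM. The treated and untreated samples did not overlap. It was called at 0.005, 0.05 and 0.5 µM, where its log2 fold changes were 1.09, 1.48 and 1.43 (SE 0.22 each, adjusted p = 0.0197, 0.00239 and 0.00412, edgeR), and the calls at 0.005 and 0.5 µM were lost without C2 replicate 1 (adjusted p = 0.157 and 0.0538), that at 0.005 µM also without C2 replicate 2 (0.113) or either sample of the dose. Its exons overlap unnamed genes of the opposite strand over 11.1% of their length. LAMA2, the α2 chain of muscle and nerve basement membranes, was 1.60 to 2.00 CPM untreated and 2.55 to 4.45 CPM treated, again without overlap, and was called at 0.0005, 0.05 and 0.5 µM with log2 fold changes of 0.93, 1.30 and 0.95 (SE 0.20 each, adjusted p = 0.0323, 0.00326 and 0.0195, edgeR). The call at 0.05 µM remained without each sample in turn, that at 0.5 µM was lost without either C2 sample (0.157 and 0.0897) or either sample of the dose (0.114 and 0.106), and that at 0.0005 µM was lost under 8 of the 12 omissions, with adjusted p from 0.0582 to 0.241.

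LAMA5, LAMB1, LAMB2, LAMC1 and LAMA4, chains of the broadly expressed laminins of epithelia and vessels, gave no call in any comparison. LAMB1 was the steadiest, with a highest sample 1.29 times its lowest. LAMB2 spanned 122 to 274 CPM and LAMC1 145 to 287 CPM, in both cases with the C1 replicates at the ends of the range. LAMB4, a β chain seldom studied, had 0 counts in both C1 samples, 1 and 3 counts in the C2 samples and 7 to 29 counts in the treated samples. It passed the filter on low counts through its treated samples, so no p is given for it. Its edgeR calls at 0.05 and 0.5 µM are a description, and both were lost without C2 replicate 1. The first was also lost without C2 replicate 2 or either sample of the dose, and the second under 8 of the 12 omissions in all.

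COL13A1, a transmembrane collagen of cell junctions and the most abundant collagen here, was lower in every treated sample. Untreated samples had 537 and 375 CPM in C1 and 485 and 411 CPM in C2. Treated samples had 275 and 273 CPM at 0.0005 µM, 287 and 284 CPM at 0.005 µM, 274 and 285 CPM at 0.05 µM, and 310 and 296 CPM at 0.5 µM. The 8 treated samples thus lay within a narrow band under the lowest untreated sample. It fell by 0.66 on the log2 scale in treated against untreated samples (SE 0.10, adjusted p = 0.000257, edgeR), a 1.58-fold lower level, and this call remained under every alternative. Against C2 alone the log2 differences were -0.71, -0.65, -0.68 and -0.56, with adjusted p of 0.054, 0.0658, 0.0328 and 0.0757 (edgeR), so only 0.05 µM passed, and that call was lost without either C2 sample (adjusted p = 0.24 and 0.068) and under 8 further omissions of a single sample (0.0545 to 0.144). The slope among doses was 0.04 (SE 0.04, adjusted p = 0.621).

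The other transmembrane collagens were weaker. COL17A1, a hemidesmosome component, ranged from 9.47 to 13.9 CPM and was not called. COL23A1 had 3 counts over the 4 untreated samples and 62 over the 8 treated samples, a ratio of 8.0 after scaling (exact 95% interval 2.61 to 39.9, counting error only). At 0.5 µM 27 counts stood against 2 in C2, a ratio of 12.9 (3.24 to 112). It passed the filter on low counts through its treated samples, so no p is given for it. Its edgeR call at 0.5 µM is a description, and was lost under 8 of the 12 omissions of a sample.

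Collagen IV was represented by 6 chains, encoded in pairs that start back to back. COL4A1 and COL4A2 start 127 bases apart on chromosome 13, COL4A3 and COL4A4 419 bases apart on chromosome 2, and COL4A5 and COL4A6 380 bases apart on the X chromosome, by the RefSeq starts on GRCh38.p14. The promoter windows of COL4A1 and COL4A3 (250 bases before to 50 after the start, 5′ to 3′) are shown because the first pair was strongly and the second weakly expressed. Capitals mark matches, on either strand, to the CCAAT box (CCAAT) and the GC box (GGGCGG). The letters of the TATA box (TATAAA) and of the AP-1 site (TGANTCA) were also searched and are in neither window, and no marked matches overlap each other.
COL4A1, chr13:110307108-110307407, minus strand: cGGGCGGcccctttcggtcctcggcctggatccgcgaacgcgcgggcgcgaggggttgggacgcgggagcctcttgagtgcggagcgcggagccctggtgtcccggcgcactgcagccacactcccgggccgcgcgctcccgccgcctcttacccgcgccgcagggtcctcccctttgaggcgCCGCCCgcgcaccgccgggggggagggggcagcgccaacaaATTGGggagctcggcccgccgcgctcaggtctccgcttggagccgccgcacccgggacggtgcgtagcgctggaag
COL4A3, chr2:227164374-227164673, plus strand: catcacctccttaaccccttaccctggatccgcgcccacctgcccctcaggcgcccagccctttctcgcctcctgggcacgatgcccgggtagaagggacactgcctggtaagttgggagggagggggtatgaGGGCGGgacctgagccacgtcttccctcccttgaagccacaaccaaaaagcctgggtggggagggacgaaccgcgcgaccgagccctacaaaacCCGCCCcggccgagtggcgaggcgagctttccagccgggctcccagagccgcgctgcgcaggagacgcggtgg

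The COL4A1 window holds 1 CCAAT box and 2 GC boxes, and shares 226 bases with that of COL4A2. The COL4A3 window holds 2 GC boxes. Of the members, 41 had a RefSeq window, and 11 of these held a CCAAT box, 24 a GC box, 5 a TATA box and 1 an AP-1 site, while the shares among all 35116 windows were 34.6%, 45.0%, 11.5% and 7.71%.

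COL4A1 had 58.8 and 27.0 CPM in C1, 38.2 and 30.0 CPM in C2, and 21.0 to 27.8 CPM in treated samples. COL4A2 had 135 and 50.6 CPM in C1, 75.8 and 57.9 CPM in C2, and 39.7 to 58.0 CPM in treated samples. Both were highest in C1 replicate 1, and their untreated and treated ranges overlapped. In treated against untreated samples COL4A1 fell by 0.60 (SE 0.15, adjusted p = 0.00943, edgeR) and COL4A2 by 0.71 (SE 0.19, adjusted p = 0.0119) on the log2 scale. Without C1 replicate 1 the falls were smaller, at log2 differences of -0.33 for both, with adjusted p of 0.0548 and 0.0847 (edgeR). Neither was called at any single dose. COL4A3, COL4A4 and COL4A5 were not called, with means of 0.684, 1.35 and 1.91 CPM, and 6.82% of the exons of COL4A3 overlap MFF-DT on the other strand. COL4A6 was 0.0895 to 0.154 CPM untreated and 0.168 to 0.478 CPM treated, and rose by 1.24 in treated against untreated samples (SE 0.35, edgeR). It could pass the filter on low counts through its treated samples alone, so no p is given for it. Its call is a description, and was lost with day 4 samples only and without C2 replicate 1.

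Fibrillar collagens rose in several cases, all at low levels. COL11A2, a minor chain of cartilage fibrils, was 0.716 and 0.835 CPM in C1 and 0.720 and 0.920 CPM in C2. It had 2.27 and 2.01 CPM at 0.0005 µM, 2.84 and 2.75 CPM at 0.005 µM, 2.32 and 3.55 CPM at 0.05 µM, and 2.72 and 2.59 CPM at 0.5 µM. Every treated sample exceeded every untreated one, with little order among doses. Its log2 fold changes against C2 were 1.39, 1.77, 1.84 and 1.70 (SE 0.25 each, adjusted p = 0.0123, 0.00263, 0.00148 and 0.0031, edgeR), a rise of 2.62-fold to 3.58-fold. Without C2 replicate 1 the adjusted p (edgeR) at 0.0005, 0.005 and 0.5 µM were 0.137, 0.0608 and 0.0638, and without either sample of 0.0005 µM that dose gave 0.105 and 0.0718. The call at 0.05 µM remained without each sample in turn.

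COL3A1, the partner fibril collagen of skin and vessels, was 0.140 and 0.328 CPM in C1, 0.344 and 0.129 CPM in C2, 0.438 and 0.374 CPM at 0.0005 µM, 0.672 and 0.532 CPM at 0.005 µM, 1.52 and 1.46 CPM at 0.05 µM, and 1.29 and 1.21 CPM at 0.5 µM. The higher doses thus stood apart from the lower ones. It rose by 2.62 (SE 0.39, adjusted p = 0.00278, edgeR) at 0.05 µM and by 2.37 (SE 0.40, adjusted p = 0.00663) at 0.5 µM. Its slope along the doses was 0.62 log2 units per 10-fold dose (SE 0.12, adjusted p = 0.0129, edgeR), and without either sample of 0.0005 µM that p was 0.113 and 0.0728. Slopes were called for 2 members, COL3A1 rising and another falling, against a background of 3.06% (1.02% rising and 2.04% falling).

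COL5A2, a regulator of fibril width, was 1.69 to 2.21 CPM untreated, 2.63 to 4.51 CPM treated, and rose at 0.05 µM (log2 1.14, SE 0.19, adjusted p = 0.00462, edgeR) and 0.5 µM (0.86, SE 0.19, adjusted p = 0.0224). The first was lost without replicate 2 of 0.05 µM (adjusted p = 0.0531) and the second without either sample of either group (0.0759 to 0.18). Its partner COL5A1 had 12.3 to 33.1 CPM and was not called, and the mean ratio of COL5A1 to COL5A2 in RPKM was 6.19 in C2 (5.27 and 7.11 in its samples) and 2.38 at 0.05 µM. In C1 the ratio was 12.5 in replicate 1 and 5.09 in replicate 2. COL11A1 had 0 counts in both C1 samples, 5 and 2 in C2 and 9 to 21 in treated samples. Its log2 difference from C2 at 0.05 µM was 2.10 (SE 0.56, edgeR). It passed the filter on low counts through its treated samples, so no p is given for it. Its call at 0.05 µM is a description, and was lost with DESeq2 and under 10 of the 12 omissions of a sample. COL2A1, the main collagen of cartilage, had 0 counts in all 4 untreated samples and 69 counts over the 8 treated samples, at least 8.91-fold higher when 3 counts are taken as the limit over the untreated group. It could pass the filter on low counts through its treated samples alone, so no p is given for it. COL1A1, COL24A1 and COL27A1 had means of 7.62, 2.00 and 12.5 CPM and no call.

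COL20A1, a fibril-associated collagen, was called at all 4 doses. It was 0.0702 to 0.147 CPM in the untreated samples, 0.678 and 0.493 CPM at 0.0005 µM, 1.03 and 1.09 CPM at 0.005 µM, 0.505 and 0.508 CPM at 0.05 µM, and 0.675 and 0.662 CPM at 0.5 µM. All treated samples lay above, and 0.005 µM was highest. Its log2 fold changes against C2 were 2.26, 3.10, 2.04 and 2.44 (SE 0.36, 0.35, 0.37 and 0.36, edgeR). It could pass the filter through its treated samples alone, so no p is given for it and its calls are a description. The calls at 0.0005, 0.05 and 0.5 µM were lost without C2 replicate 1, and that at 0.0005 µM also without replicate 1 of the dose. COL16A1, which binds integrins, was 2.83 to 3.50 CPM untreated and 4.15 to 5.61 CPM treated, and its log2 fold changes at 0.005, 0.05 and 0.5 µM were 0.83, 0.60 and 0.82 (SE 0.17 each, adjusted p = 0.02, 0.0487 and 0.0165, edgeR). All 3 were lost without either C2 sample (adjusted p from 0.0855 to 0.197, edgeR) and without either sample of the dose (0.0742 to 0.283), and that at 0.05 µM also without any of the other treated samples (0.0692 to 0.103), with the replicate block (0.0582), in a fit of only the 4 samples (0.0522) and with the filter of 1 count in total (0.0795). In treated against untreated samples it rose by 0.66 (SE 0.12, adjusted p = 0.00109, edgeR).

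COL9A2 and COL9A3, chains of the cartilage collagen IX, went the other way. COL9A3 was 1.12 and 0.805 CPM in C1, 1.55 and 1.12 CPM in C2, and 0.449 to 0.928 CPM in treated samples, and fell by 1.21 at 0.05 µM (SE 0.30, adjusted p = 0.028, edgeR) and by 1.20 at 0.5 µM (SE 0.30, adjusted p = 0.0393). Without C2 replicate 1 the adjusted p (edgeR) were 0.222 and 0.308. The call at 0.05 µM was also lost without replicate 2 of 0.0005 µM (0.0537) or either sample of the dose (0.16 and 0.0623), and that at 0.5 µM under 8 of the 12 omissions in all (0.0578 to 0.308). COL9A2 was 2.32 to 3.85 CPM untreated and 1.62 to 2.23 CPM treated, and fell by 0.51 (SE 0.15, adjusted p = 0.0223, edgeR) in treated against untreated samples, with a difference of -0.31 and an adjusted p of 0.12 without C1 replicate 2, 0.205 with day 4 samples only, 0.0612 where only genes with a mean of 1 CPM were tested and 0.0808 with offsets for GC content and length. COL12A1, with 36.7 to 59.3 CPM, was not called. COL14A1 and COL21A1 were called higher only in treated against untreated samples, and neither passed with day 4 samples only. Both could pass the filter on low counts through treated samples alone, so no p is given and the calls are a description. COL14A1 was also lost with the filter of 1 count in total and without C1 replicate 1, C1 replicate 2, C2 replicate 1 or replicate 2 of 0.005 µM.

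COL7A1, which forms the anchoring fibrils that tie the epithelial basement membrane to the stroma, was 2.81 and 4.26 CPM in C1, 3.44 and 5.44 CPM in C2, 9.66 and 5.95 CPM at 0.0005 µM, 13.8 and 12.7 CPM at 0.005 µM, 6.04 and 11.3 CPM at 0.05 µM, and 8.93 and 14.2 CPM at 0.5 µM. Treated and untreated samples did not overlap, though replicates differed widely. It rose by 1.38 in treated against untreated samples (SE 0.25, adjusted p = 0.000886, edgeR), and by 1.58 (SE 0.36, adjusted p = 0.034) at 0.005 µM and 1.38 (SE 0.36, adjusted p = 0.0418) at 0.5 µM. The dose calls were lost without C2 replicate 1 (adjusted p = 0.305 and 0.327, edgeR), and that at 0.5 µM under 10 of the 12 omissions of a sample (0.0534 to 0.327). That at 0.005 µM was also lost without C2 replicate 2 (0.069) or either sample of the dose (0.183 and 0.123), and both were lost when only genes with a mean of 1 CPM were tested (0.0775 and 0.0743). COL15A1, a basement membrane zone collagen, was 0.548 and 0.298 CPM in C1, 1.06 and 0.699 CPM in C2 and 1.05 to 1.85 CPM treated, with a rise of 1.01 (SE 0.25, adjusted p = 0.00671, edgeR) that had an adjusted p of 0.0974 in day 4 samples only. COL26A1 had 1 and 3 counts in C2 and 23 and 24 in the pair at 0.05 µM (log2 3.12, SE 0.75, edgeR). It passed the filter on low counts through treated samples, so no p is given for it. Its call at 0.05 µM is a description, and was lost without either C2 sample or either sample of the dose. COL6A1, COL6A2, COL6A3, COL8A1 and COL18A1 were called in no comparison.

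Fibroblast markers were examined because they share a cell type with many of these collagens. Of 10, 2 reached 1 CPM (FBN1 with 105 CPM and PDGFRB with 6.13 CPM), and the summed level was 82.9 to 180 CPM in untreated and 88.1 to 125 CPM in treated samples. Among those under 1 CPM, DCN, DPT, PDPN and POSTN had means of 0.0625, 0.00696, 0.00481 and 0.0164 CPM. Of the 6 tested markers, 2 (33.3%) were called higher at each dose and 0 lower. Of all tested genes 1.87%, 2.5%, 5.09% and 4.36% were called higher, from the lowest to the highest dose. The same 2 markers were called in treated against untreated samples, where 13.1% of all tested genes were called higher. There 4 of the 6 lay above and 2 below. The called markers were PDGFRA and FAP. PDGFRA went from 0.122 CPM in C2 to 0.686, 0.740, 2.08 and 1.05 CPM by dose (adjusted p = 0.0128, 0.00922, 0.000221 and 0.00274, edgeR), and FAP from 0 counts in C2 to means of 0.113 to 0.162 CPM. FAP passed the filter on low counts through samples other than C2, so its calls are a description and no p is given for it. The part of these 2 markers in the results on weakly expressed collagens was not tested.

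Genes that modify, export and bind these chains were taken from 4 lists, to be read against the 2.34%, 3.28%, 8.32% and 6.32% of all tested genes called from the lowest to the highest dose. With the fibroblast markers they gave 32 calls at a dose. Of these, 4 remained under every alternative that tested the gene, namely DDR2 at 0.05 and 0.5 µM and TLL2 and PDGFRA at 0.05 µM. The other 28 were lost without C2 replicate 1 (adjusted p 0.0566 to 0.331, edgeR), 22 of them also without C2 replicate 2 (0.0551 to 0.182) and 25 without a sample of the dose (0.0593 to 0.335). Alternatives that keep all samples also lost 9 of them (0.0504 to 0.191).

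Of 17 tested genes for collagen modification and folding, 0, 0, 2 and 1 were called from the lowest to the highest dose (0 and 3 had an unadjusted p under 0.05 at 0.0005 and 0.005 µM), all lower. These are 11.8% and 5.88% of the list, near the share of all genes. PLOD2, a lysyl hydroxylase, fell from 231 CPM in C2 to 154 CPM at 0.05 µM (log2 -0.59, SE 0.15, adjusted p = 0.0274, edgeR) and 160 CPM at 0.5 µM (-0.54, SE 0.15, adjusted p = 0.0493). With offsets for GC content and length the first was -0.35 (adjusted p = 0.0607), and where only genes with a mean of 1 CPM were tested the adjusted p were 0.0678 and 0.108. The second was also lost with C1 and C2 together as control (-0.38, adjusted p = 0.068) and with the filter of a mean of 10 counts (0.0555). FKBP14, a prolyl isomerase, was called at 0.05 µM (-0.47, SE 0.13, adjusted p = 0.0401), but not with the offsets (-0.29, adjusted p = 0.0689), the filter of 1 count in total (0.191) or that of a mean of 1 CPM (0.066). Along the doses, 5 of the 17 fell and 0 rose, against a background of 2.04% falling, and the median slope was -0.12 against 0.01 over all tested genes. Leaving out either sample of 0.0005 µM left 1 of these slopes called, and the others had adjusted p of 0.113 to 0.227 without replicate 1 and 0.0552 to 0.12 without replicate 2 (edgeR). With the replicate block 3 were called, and the other 2 had adjusted p of 0.0509 and 0.055.

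Of 18 tested genes for export, processing and crosslinking, 2, 1, 3 and 3 were called by dose (11.1%, 5.56%, 16.7% and 16.7%), all higher but 1 at 0.05 µM. TLL2, a procollagen C-proteinase relative, rose at all doses, from 1.19 CPM in C2 to 2.66, 3.38, 3.80 and 3.79 CPM (adjusted p = 0.031, 0.00753, 0.0025 and 0.0036, edgeR). Its relative TLL1 was called at 0.5 µM (0.165 to 0.475 CPM, adjusted p = 0.0426, edgeR, and 0.058 with DESeq2). ADAMTS14, a procollagen N-proteinase, was called at 0.05 and 0.5 µM (0.0266 CPM in C2 to 0.276 and 0.249 CPM). Its C2 level was too low for the filter, which it passed through other samples, so no p is given and its calls are a description. LOX, the lysyl oxidase that crosslinks collagen, had 38.8 CPM in C1, 79.2 in C2 and 125, 82.0, 79.4 and 57.3 CPM by dose. It rose from day 2 to day 4 (log2 1.03, SE 0.13, adjusted p = 0.00414, edgeR, but 0.0572 without C2 replicate 2 and 0.998 in a fit of only the 4 samples) and at 0.0005 µM (0.65, SE 0.13, adjusted p = 0.02), and its slope along the doses was -0.34 (SE 0.04, adjusted p = 0.000596).

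Of 13 tested basement membrane partners, 0, 0, 1 and 2 were called by dose (3 and 2 had an unadjusted p under 0.05 at the lowest doses), which is 7.69% and 15.4% at the higher doses. The call at 0.05 µM was lower, and those at 0.5 µM were 1 higher and 1 lower. FREM2 fell from 34.7 CPM in C2 to 22.2 CPM at 0.05 µM and 22.9 CPM at 0.5 µM (adjusted p = 0.0246 and 0.042, edgeR). Of 15 tested collagen and laminin receptors, 1, 1, 4 and 3 were called (6.67%, 6.67%, 26.7% and 20% of the list), of which 2 at 0.05 µM and 2 at 0.5 µM were lower. DDR2, a tyrosine kinase receptor for fibrillar collagen, was 1.17 CPM in C2 and 3.19, 4.00, 5.26 and 4.88 CPM by dose, with log2 fold changes of 1.45, 1.78, 2.17 and 2.06 (SE 0.26 each, adjusted p = 0.0124, 0.00347, 0.000703 and 0.00135, edgeR). ITGA6, the α chain of laminin-binding integrins, fell from 250 CPM to 150 CPM at both 0.05 and 0.5 µM (-0.74, SE 0.17, adjusted p = 0.0214 and 0.0274), and ITGA2, a collagen-binding chain, from 452 to 277 and 302 CPM (adjusted p = 0.0172 and 0.0456). ITGA7 was called at 0.05 µM, from 0.731 to 1.45 CPM (adjusted p = 0.0308).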

How the data were processed

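The deposited values are whole-number counts of reads per gene, with no normalization and replicates kept apart. According to the methods and processing notes, the authors trimmed reads with Trimmomatic 0.39, aligned them to GRCh37 with STAR 2.7.5, kept unique alignments and counted reads in exons. Total counts per sample ran from 38380629 to 79169121. The series table and the 12 single-sample files hold identical values.

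Counts were fitted with edgeR 4.0.16 in R 4.3.3: TMM scaling, filterByExpr over the 6 conditions (25249 genes kept), robust quasi-likelihood test, two-sided, Benjamini-Hochberg over all tested genes, called under 0.05. The 4 doses against C2, and C2 against C1, came from a single model of all samples with 6 residual degrees of freedom. The dose slope used the 8 treated samples, and the 8 treated and 4 untreated samples had a fit of their own. An exact permutation test of 2 against 2 samples cannot go below p = 0.333. Standard errors hold the spread between replicates as well as the counting error, and the intervals given cover counting error only. RPKM used merged exon lengths of GENCODE 44 on GRCh37, and promoter windows came from RefSeq.

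Members and lists were chosen with earlier results of these data known. Named genes are members with a mean of 1 CPM or more, members called in any of 7 comparisons and, from each of 4 other lists, at most 4 genes called at a dose, by smallest p at 0.5 µM. Some single genes that this rule covers are not reported here, though they count among the members and lists. The closing part lists the alternatives, among them DESeq2 1.42.0.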

Additional observations from a re-analysis of the deposited data

Results flagged for a closer look

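Single samples were examined in the 4 untreated and the 8 treated samples for each of the members with a mean of 1 CPM or more and each called member, 85 sets in all, with Dixon's test at its 95% limit. In sets from a single condition this limit marks about 1 in 20 by chance. The treated sets pool all doses and the untreated sets both days, so a difference between conditions can also mark a sample. In all, 4 sets were marked. COL17A1 was 9.78 CPM in C1 replicate 2, below the other untreated samples, the nearest of which had 13.3 CPM. COL9A2 was 3.85 CPM in the same sample, above the nearest at 2.52 CPM. COL8A1 was 18.7 CPM in replicate 2 of 0.0005 µM, with the nearest treated sample, replicate 1 of the same dose, at 14.6 CPM. LAMA4 was 13.9 CPM in replicate 2 of 0.0005 µM, with the nearest treated sample at 11.3 CPM.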

How the results depend on the processing

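The counts of called members, their single calls and the calls on genes of the other lists were recomputed with DESeq2, RLE normalization, 3 other filters, robust estimation switched off, a replicate block, offsets for GC content and length, fits of just the 4 samples compared (pairs of conditions only), C1 and C2 together as control (doses only), each sample left out (a lone sample is then assumed to vary like the other groups), and day 4 samples only (treated against untreated, chosen after seeing the data). Of 59 calls on a member in a comparison, 19 remained under every alternative that tested the gene and 0 changed direction. The members called moved by more than 1.5 times as follows, with the share of all genes called in the same fit in parentheses. Causes were untested, except that the filter of a mean of 1 CPM removed members from the test. For the slope, DESeq2 gave 7 (6.72%), RLE 4 (3.39%), the filter of 1 count 7 (2.98%) and the offsets 6 (5.30%), against 2. With the filter of 1 count in total there were 8 (3.03%), 11 (3.90%) and 18 (5.74%) at 0.0005, 0.005 and 0.5 µM. A mean of 1 CPM left 7 (7.07%) at 0.05 µM, 5 (5.13%) at 0.5 µM and 11 (20.8%) in treated against untreated, with members under 1 CPM no longer tested. Among members of 1 CPM or more the main fit had called 6, 6 and 12 in these comparisons. The offsets gave 9 (4.84%) at 0.0005 µM. Fits of only the 4 samples gave 10 (12%) at 0.0005 µM, 10 (11%) at 0.005 µM and 0 in C2 against C1, where edgeR called 0 of 20926 genes (599 genes, 1 of them a member, had an unadjusted p under 0.05). With C1 and C2 together as control the counts were 10 (8.26%), 16 (13.5%) and 17 (14.4%) at 0.0005, 0.005 and 0.5 µM. Omitting single samples gave 0 to 12 (0.0005 µM), 1 to 16 (0.005 µM), 5 to 16 (0.05 µM), 1 to 21 (0.5 µM), 0 to 7 (C2 against C1), 1 to 5 (slope) and 20 to 26 (treated against untreated).

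Samples of the same number deviated together in some pairs of conditions and oppositely in others (7 of 15 pairs correlated over 0.1, range -0.58 to 0.57). With no common direction, the numbers were not taken as pairs. With the replicate block the members called were 5, 6, 11 and 11 by dose, 1 in C2 against C1, 2 for the slope and 23 in treated against untreated. Depth limits members of few counts, such as COL23A1, whose ratio of 8.0 has a counting interval of 2.61 to 39.9, and its effect on other members was not tested.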
